A study of Mus musculus with 8 samples.

Results

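A set of 10 genes of brain endothelium, Cldn5, Cdh5, Pecam1, Slc2a1, Abcb1a, Flt1, Kdr, Tek, Vwf and Ly6c1, was followed in RNA sequencing libraries of cortex from APP/PS1 mice. They were chosen by symbol, as known endothelial and blood-brain barrier genes, out of 22869 gene symbols in the deposited count table. Each gene was represented by its transcript row with the highest mean count over the 8 libraries. All 10 passed the filter on low counts, as did 16069 genes in all. Both groups carried the APP/PS1 genotype, transgenes under which amyloid plaques form, on the C57BL/6 strain, and the labels give cortex as the tissue. The treated group (4 libraries) received bexarotene, which activates retinoid X receptors, and the vehicle group (4 libraries) received glycerol, 0.2 mg/kg. The labels used here give no bexarotene dose or duration and no age or sex. They also do not tie libraries to single animals, and the p-values below therefore describe library-to-library spread, which may be technical.

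The capillaries of the brain are lined by endothelial cells that are sealed to each other by tight junctions and adherens junctions. Because little passes between the cells, nutrients cross through carriers such as the glucose transporter, and efflux pumps return many drugs and metabolites to the blood. Signals from neighbouring cells, among them VEGF, angiopoietins and Wnt ligands, form and maintain this layer, and amyloid also collects along vessels in many lines that form plaques. In whole tissue, fewer endothelial cells and less RNA per endothelial cell cannot be told apart.

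The summed counts of a library, over every transcript row, ranged from 42413825 to 76542067 per library. The libraries differed in ways that the treatment does not name. On the first principal component, replicates 1 and 3 of both groups lay apart from replicates 2 and 4. Vehicle replicates 1 and 3 held Xist, the RNA of the inactive X chromosome, and at most 0.282 CPM (library-scaled counts) of 4 Y-linked genes, whereas vehicle replicates 2 and 4 held at least 134 CPM of the Y-linked genes, with Xist no higher than 0.861 CPM. Both kinds of transcript were present in every bexarotene library. Markers of striatum, a region below the cortex, summed to 259 to 1142 CPM under bexarotene and to 203 to 609 CPM under vehicle, with their highest levels in bexarotene replicates 1 and 3 and vehicle replicate 1. Markers of choroid plexus, the secretory tissue of the ventricles, summed to 75.3 to 1460 CPM under bexarotene and to 17.1 to 41.3 CPM under vehicle, with all 8 genes positive in log2 fold change (median 1.62) and the highest level in bexarotene replicate 2. Markers of microglia, the macrophages of the brain, summed to 731 to 973 CPM under bexarotene and to 560 to 698 CPM under vehicle. All 12 genes were positive (median 0.41), 10 of them at an unadjusted p below 0.05 and 6 without overlap between the groups. Over all genes, 8.77% passed that level and 5.77% had no overlap, in either direction. No gene of these lists was at 0 in every library, and their part in the results below was not tested. The results are also given within replicates 1 and 3 and within replicates 2 and 4.

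None of the 10 endothelial genes passed the test between bexarotene and vehicle. The count was 0 of 10 at an adjusted p below 0.05 in edgeR's quasi-likelihood test, where 0.00622% of all genes were called (1 gene of 16069), and it was also 0 in DESeq2, in edgeR's exact test and in limma voom. At an unadjusted p below 0.05 the quasi-likelihood test, DESeq2 and the exact test each had 1 member, Vwf, and voom had 0. For comparison, 8.77% of all genes passed that level in either direction in the quasi-likelihood test and 4.88% were higher. The share over all genes at this level is not given here for DESeq2, the exact test or voom, so their counts have no background. In 0 of the 10 did the bexarotene libraries lie entirely above or below the vehicle libraries, against 5.77% of all genes (3.61% higher and 2.16% lower). The fitted log2 fold change, bexarotene minus vehicle, was positive in 9 of the 10 members and in 50.2% of all genes. Its median was 0.22 over the members and 0.00092 over all genes. The members' median was 0.12 without vehicle replicate 3, 0.13 without bexarotene replicate 1, 0.36 without vehicle replicate 2 and 0.075 with the level of interferon response genes as a covariate. The microglial markers, all 12 positive, were shifted the same way as the members. The members share libraries and largely move together, so these counts do not stand for 10 separate observations.

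**Figure D1:**
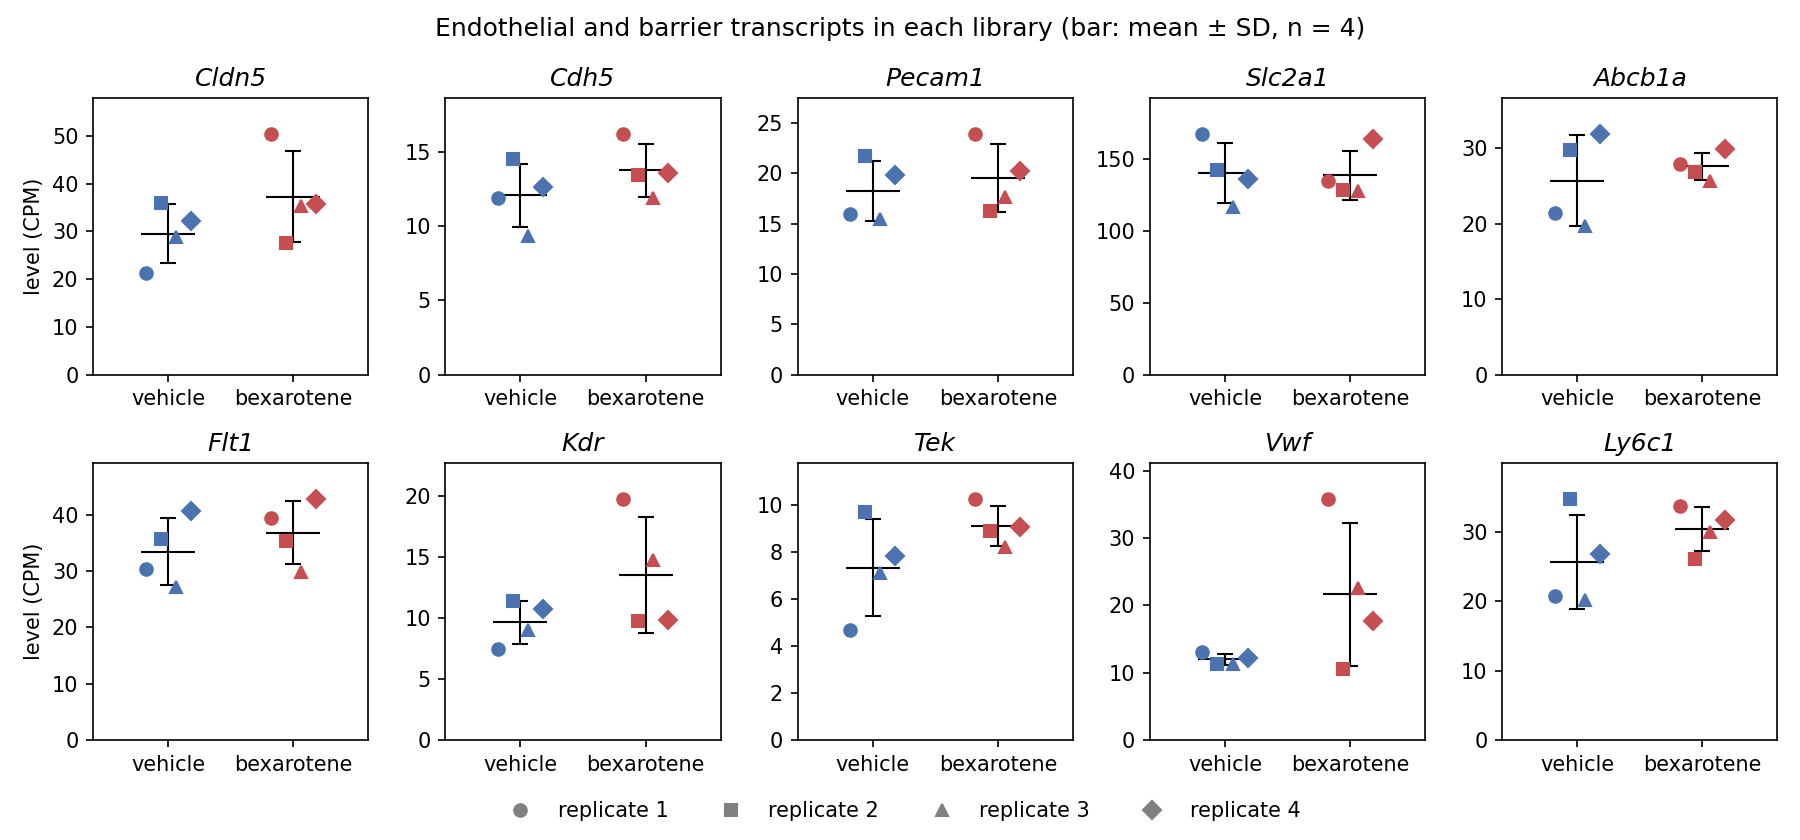
Level of each gene in CPM (vertical axis, linear and starting at 0) in the 4 vehicle and 4 bexarotene libraries, with the replicate shown by the marker and the mean ± SD by the black bar. The groups overlap in all 10 genes; Vwf and Kdr were highest in bexarotene replicates 1 and 3, while vehicle replicates 1 and 3 were the lowest vehicle libraries for 8 of the genes.

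The junction genes were described first. Cldn5 encodes claudin-5, the main strand protein of the tight junctions of brain endothelium. In bexarotene replicates 1 to 4 it stood at 50.4, 27.5, 35.4 and 35.8 CPM, and at 21.3, 35.9, 28.8 and 32.1 CPM in vehicle replicates 1 to 4. Bexarotene replicate 1 was the highest library and vehicle replicate 1 the lowest, and the other 6 were interleaved. Cldn5 differed by 0.34 ± 0.20 (log2, SE; quasi-likelihood adjusted p = 0.702). An exact permutation test, two-sided, gave 0.286, where 0.0286 is the smallest value that 4 against 4 allows. The 95% interval ran from 0.922-fold to 1.73-fold. Without bexarotene replicate 1 the difference was 0.16 and without vehicle replicate 1 it was 0.21.

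Cdh5, which encodes VE-cadherin of the adherens junctions, was at 16.2, 13.4, 11.9 and 13.6 CPM under bexarotene and at 11.9, 14.5, 9.36 and 12.6 CPM under vehicle. Its difference of 0.19 ± 0.15 (SE, log2) did not pass (quasi-likelihood adjusted p = 0.782). Pecam1, an adhesion molecule at the borders between endothelial cells, was at 23.9, 16.2, 17.6 and 20.3 CPM under bexarotene and at 15.9, 21.7, 15.5 and 19.8 CPM under vehicle. For Pecam1 the log2 fold change was 0.10 ± 0.15 (SE) and the 95% interval 0.847-fold to 1.35-fold. Leaving out 1 library gave 0.083 to 0.29 for Cdh5, lowest without vehicle replicate 3 and highest without vehicle replicate 2, and -0.014 to 0.20 for Pecam1, lowest without bexarotene replicate 1 and highest without vehicle replicate 2. In both genes vehicle replicate 2 exceeded 3 of the 4 bexarotene libraries, and vehicle replicate 3 was the lowest of all 8.

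Of the barrier transporters, Slc2a1 had the fitted difference nearest to 0 of the 10 members. Slc2a1 encodes Glut1, the glucose carrier of the barrier, which is also made by astrocytes. It was the most abundant member. Bexarotene replicates 1 to 4 had 135, 128, 128 and 164 CPM, compared with 167, 142, 117 and 136 CPM in vehicle replicates 1 to 4. Vehicle replicate 1 and bexarotene replicate 4 were the highest libraries, 1 from each group. Bexarotene libraries averaged 139 ± 17.2 CPM and vehicle libraries 140.4 ± 20.8 CPM (SD, n = 4 each). The log2 fold change was -0.02 ± 0.12 (SE), a sign that changed under several scalings and left-out libraries, and the 95% interval of 0.816-fold to 1.19-fold was the narrowest of the 10.

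Abcb1a encodes P-glycoprotein, the efflux pump that keeps many drugs out of the brain. It was at 27.9, 26.8, 25.7 and 29.9 CPM under bexarotene and at 21.4, 29.7, 19.7 and 31.9 CPM under vehicle. The bexarotene values had a coefficient of variation of 6.58% and lay inside the vehicle range, whose coefficient of variation was 23.5%. Vehicle replicates 1 and 3 were low and vehicle replicates 2 and 4 high. The log2 fold change was 0.10 ± 0.15 (SE), with -0.0034 without vehicle replicate 3 and 0.23 without vehicle replicate 4. Its paralog Abcb1b, which shares 20.3% of 50-base windows of the Abcb1a coding sequence exactly, was at 2.35 to 3.48 CPM under bexarotene and 1.43 to 3.79 CPM under vehicle. How reads common to both copies were counted is not given, so both values carry that uncertainty.

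The receptors for vascular growth factors did not all follow one pattern. Flt1, the VEGF receptor that also acts as a decoy for VEGF, was at 39.4, 35.3, 29.9 and 42.7 CPM under bexarotene and at 30.3, 35.7, 27.2 and 40.7 CPM under vehicle. Replicate 4 was the highest and replicate 3 the lowest in each group, and the log2 fold change was 0.14 ± 0.15 (SE), with 0.051 without vehicle replicate 3 and 0.25 without vehicle replicate 4. Kdr, the main signalling VEGF receptor, was at 19.8, 9.77, 14.8 and 9.87 CPM in bexarotene replicates 1 to 4 and at 7.501, 11.4, 8.999 and 10.8 CPM in vehicle replicates 1 to 4. Bexarotene replicates 1 and 3 exceeded every vehicle library, and bexarotene replicates 2 and 4 lay inside the vehicle range. The log2 fold change of Kdr was 0.48 ± 0.24 (SE; quasi-likelihood adjusted p = 0.620; exact permutation p = 0.229), and without bexarotene replicate 1 it was 0.25. Across the 8 libraries Flt1 and Kdr correlated at a Pearson r of 0.30, against 0.89 for Flt1 with Abcb1a and 0.90 for Kdr with Cldn5.

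Tek encodes Tie2, the receptor for angiopoietins. It was at 10.3, 8.92, 8.22 and 9.10 CPM under bexarotene and at 4.70, 9.73, 7.12 and 7.86 CPM under vehicle. Vehicle replicate 1 was the lowest library and vehicle replicate 2 the second highest. The difference of 0.31 ± 0.20 (SE, log2) did not pass (quasi-likelihood adjusted p = 0.719), and it was 0.15 without vehicle replicate 1 and 0.48 without vehicle replicate 2.

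The sequences just upstream of the start sites of Kdr, Flt1, Cldn5 and Slc2a1 are shown because each holds GGGCGG or its reverse complement, the GC box. They are the last 100 bases before the annotated start in RefSeq on build GRCm38.p6, which is not the build mm9 named for the counts. Capitals mark the GC box.
Kdr, chr5:75978456-75978555, minus strand: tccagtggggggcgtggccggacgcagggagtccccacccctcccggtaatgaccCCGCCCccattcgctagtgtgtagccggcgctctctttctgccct
Flt1, chr5:147726012-147726111, minus strand: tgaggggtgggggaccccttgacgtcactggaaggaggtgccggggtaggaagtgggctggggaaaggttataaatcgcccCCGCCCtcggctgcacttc
Cldn5, chr16:18776747-18776846, plus strand: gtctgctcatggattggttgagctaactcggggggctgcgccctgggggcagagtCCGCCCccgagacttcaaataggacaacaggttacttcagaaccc
Slc2a1, chr4:119108645-119108744, plus strand: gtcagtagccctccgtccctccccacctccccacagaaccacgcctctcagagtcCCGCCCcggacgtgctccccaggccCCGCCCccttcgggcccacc
Promoter windows of 300 bases (250 before and 50 after the start) were matched for 7 of the 10 members, in 8 windows; Cdh5, Pecam1 and Vwf had no entry. GGGCGG, searched on both strands, was in the windows of these 4 members and in 35.7% of 32851 windows of all genes. Across the 8 libraries, pairs of these 4 correlated from -0.33 (Kdr with Slc2a1) to 0.90 (Cldn5 with Kdr). Whether the motif bears on the levels was not tested. CCGGAA, a core of sites for ETS factors, was in the window of Kdr alone and in 14.9% of all windows. AGGTCA, the half-site of nuclear receptors such as retinoid X receptors, was in 1 member window, that of Ly6c1, and in 16.3% of all windows. Direct repeats of AGGTCA spaced by 1 and by 4 bases were in 0 of the 8 member windows and in 0.0396% and 0.0152% of all windows.

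Vwf showed the largest fitted difference of the 10. It encodes von Willebrand factor, the clotting protein that endothelium stores and releases, which is more abundant in larger vessels than in capillaries. Its level was 35.7, 10.6, 22.5 and 17.7 CPM in bexarotene replicates 1 to 4 and 13.1, 11.3, 11.2 and 12.2 CPM in vehicle replicates 1 to 4. Bexarotene replicates 1, 3 and 4 lay above every vehicle library, and bexarotene replicate 2 lay below them all. The vehicle libraries varied little (coefficient of variation 7.27%) and the bexarotene libraries widely (49.0%). Bexarotene libraries averaged 21.6 ± 10.6 CPM and vehicle libraries 11.9 ± 0.868 CPM (SD, n = 4 each). The fitted difference was 0.86 ± 0.31 (log2, SE), for which the quasi-likelihood p was 0.0234 before and 0.521 after adjustment; the exact permutation p was 0.143. Without bexarotene replicate 1 the log2 fold change was 0.51, and without bexarotene replicate 2 it was 1.09.

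Other transcripts were high in bexarotene replicates 1 and 3, the libraries highest in Vwf. Relative to the mean of the 8 libraries, the summary level of 8 smooth muscle markers was 0.84 and 0.52 (log2) in bexarotene replicates 1 and 3 and -0.20 and -0.02 in replicates 2 and 4, and that of 20 interferon response genes was 0.97 and 0.86 against -0.27 and -0.02. The match was partial: vehicle replicate 1 had a smooth muscle level of 0.44 with Vwf at 13.1 CPM, and bexarotene replicate 4, where Vwf exceeded every vehicle library, was near the mean for both lists. Smooth muscle markers summed to 29.3 to 61.8 CPM under bexarotene and 25.7 to 49.5 CPM under vehicle, and interferon response genes to 123 to 235 and 116 to 146 CPM; no gene of either list was at 0 in every library. All 8 smooth muscle genes and 19 of the 20 interferon genes had a positive log2 fold change. With the interferon level as a covariate the log2 fold change of Vwf was 0.088, with the smooth muscle level it was 0.22, and with the striatum level it was 0.46. For Kdr the corresponding values were -0.065, 0.17 and 0.27. Blood cell markers, mainly globins, were also high in bexarotene replicates 1 and 3 (1.46 and 0.97, log2) and were lowest in bexarotene replicate 4 (-1.56). They summed to 4.59 to 37.7 CPM under bexarotene and 7.71 to 16.9 CPM under vehicle. All 5 tested genes were positive, and none of the list was at 0 in every library. Hba-a1 and Hba-a2 had the same fitted values, as did Hbb-b1 and Hbb-b2, so these are not 5 separate measurements. The sums and levels of this list therefore count globins more than once. Over the 8 libraries the interferon list correlated with single members from -0.25 (Slc2a1) to 0.92 (Kdr), with 0.90 for Vwf. For the blood list the values ran from -0.50 (Slc2a1) to 0.82 (Kdr). For the microglia list they ran from -0.06 (Slc2a1) to 0.65 (Vwf), with 0.64 for Cldn5 and 0.60 for Tek. The part of these cells in the results was not tested. Each covariate differs between the groups, so these values do not separate it from treatment.

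Ly6c1 encodes a surface protein of the Ly6 family that marks brain endothelium and also some blood leukocytes. It was at 33.7, 26.1, 29.9 and 31.7 CPM under bexarotene and at 20.7, 34.7, 20.2 and 26.8 CPM under vehicle. Vehicle replicate 2 was the highest of all 8 libraries, and vehicle replicates 1 and 3 were the lowest. The difference was 0.24 ± 0.17 (log2, SE; quasi-likelihood adjusted p = 0.743), and leaving out vehicle replicate 1, 2 or 3 gave 0.16, 0.43 and 0.15 in turn. The table held 5 transcript rows for Ly6c1, whose log2 fold changes lay between 0.24 and 0.29. Some of these rows had the same counts in most libraries, so they are not 5 separate measurements. Another Ly6 gene, Ly6a, had a log2 fold change of 0.27 ± 0.17 (SE).

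The stretch of the Ly6c1 promoter that holds the nuclear receptor half-site is shown with AGGTCA in capitals, 125 bases before the start site, on build GRCm38.p6.
Ly6c1, chr15:75048910-75049009, minus strand: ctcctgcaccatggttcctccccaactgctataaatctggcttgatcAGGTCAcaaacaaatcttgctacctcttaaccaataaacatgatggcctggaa
Ly6c1 has a close paralog on the same chromosome, Ly6c2, expressed by monocytes. Their coding sequences of 396 bases differ at 9 positions, and 46.7% of the 50-base windows of Ly6c1 are found unchanged in Ly6c2. Bases 6 to 65 of both coding sequences (GENCODE M21, build GRCm38) are shown because they hold 6 of the 9 differences, in capitals, by which reads of the pair can be told apart.
Ly6c1: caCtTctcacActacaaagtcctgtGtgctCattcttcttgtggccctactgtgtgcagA
Ly6c2: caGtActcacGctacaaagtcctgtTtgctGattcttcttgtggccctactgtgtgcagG
Bexarotene replicates 1 to 4 had Ly6c2 counts of 110, 3, 78 and 5, and the vehicle libraries, in the same order, counts of 6, 86, 4 and 2. Bexarotene replicates 1 and 3 and vehicle replicate 2 thus held nearly all of them, at 3.67% to 4.95% of the summed Ly6c1 and Ly6c2 counts, against at most 0.676% in the other 5. Ly6c2 did not pass the filter on low counts and was not tested. Monocyte and neutrophil markers were sparse: the list of 8, of which Ly6c2 is 1 and 4 passed the filter, summed to 1.21 to 4.50 CPM under bexarotene and 1.01 to 4.93 CPM under vehicle. Whether leukocyte transcripts contribute to the Ly6c1 value was not tested.

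**Figure D2:**
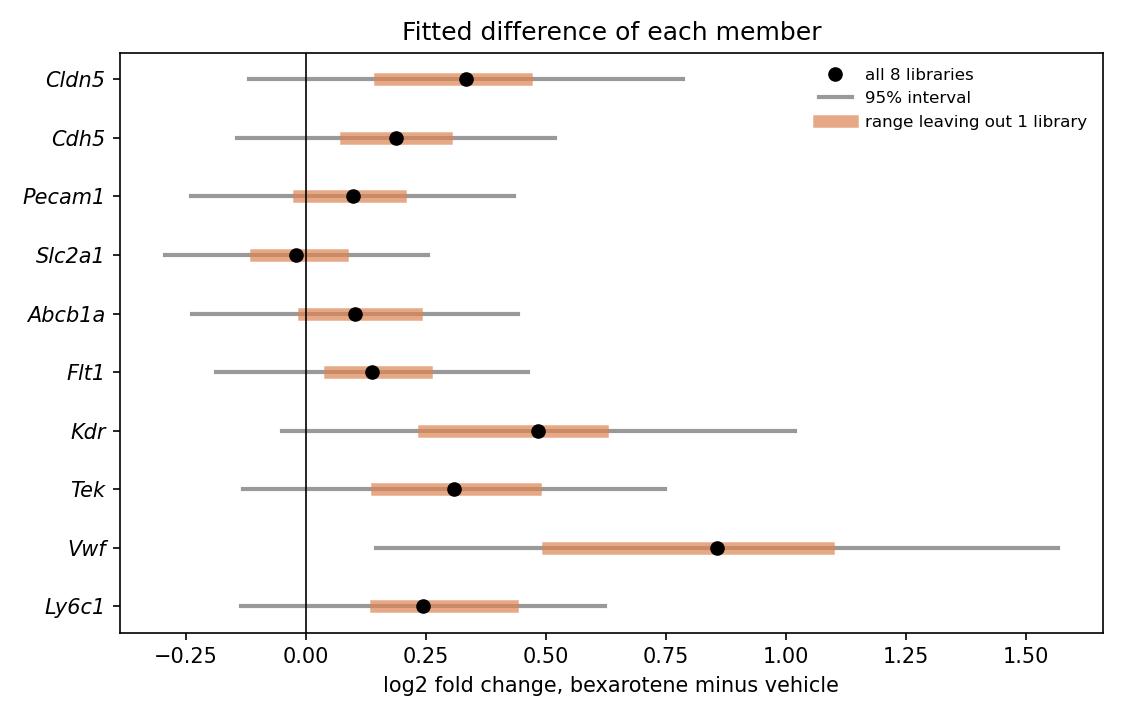
Fitted log2 fold change of each gene (black point; horizontal axis, bexarotene minus vehicle) with its 95% interval in grey and the range over the 8 fits that each leave out 1 library in orange. The interval of Vwf alone excludes 0 before adjustment, and it is also the widest; that of Slc2a1 is the narrowest.

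Counting error at the lowest count of each member was below its coefficient of variation between libraries in both groups. It was not always small beside it: for Vwf it was at most 4.24%, against 7.27% in the vehicle group. The lowest count of any member was 200, for Tek in vehicle replicate 1, where the Poisson error is 7.07% of the count, and the highest was 12279, for Slc2a1. The coefficients of variation between libraries of a group ran from 6.58% to 49.0%. Levels were compared between genes per kilobase of transcript. On this scale (mean and range over the 8 libraries, in CPM per kilobase) Slc2a1 was at 42.8 (35.8 to 51.3), Ly6c1 at 33.2 (23.96 to 41.1) and Cldn5 at 23.6 (15.1 to 35.6). Ly6c1 overlapped both of its neighbours, while every Slc2a1 value lay above every Cldn5 value. A gap followed, since Pecam1, at 5.74, reached 7.27 at most. Abcb1a was at 5.33, Flt1 at 5.10, Cdh5 at 3.24, Kdr at 1.96, Vwf at 1.90 and Tek at 1.77. From Pecam1 down to Tek each gene overlapped the next in this order, so neighbours there were not separated by the spread between libraries.

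Across the 8 libraries 42 of the 45 pairs of members had a positive Pearson correlation of log2 CPM, with a median of 0.62. Treatment, depth and cell composition are shared by all points of such a correlation, so it is a description of these libraries. Leaving Slc2a1 aside, the 36 remaining pairs ranged from 0.18 (Vwf with Abcb1a) to 0.90 (Cldn5 with Kdr). Slc2a1 stood apart, with a mean r of 0.05 with the other 9 members and values from -0.33 to 0.39. Vwf came next with a mean r of 0.44, while Pecam1 had the highest, 0.69. The libraries could be ordered by these genes: 9 of the 10 members were above their own mean in bexarotene replicates 1 and 4 and vehicle replicate 2, whereas 1 was in vehicle replicate 1 and 0 in vehicle replicate 3.

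**Figure D3:**
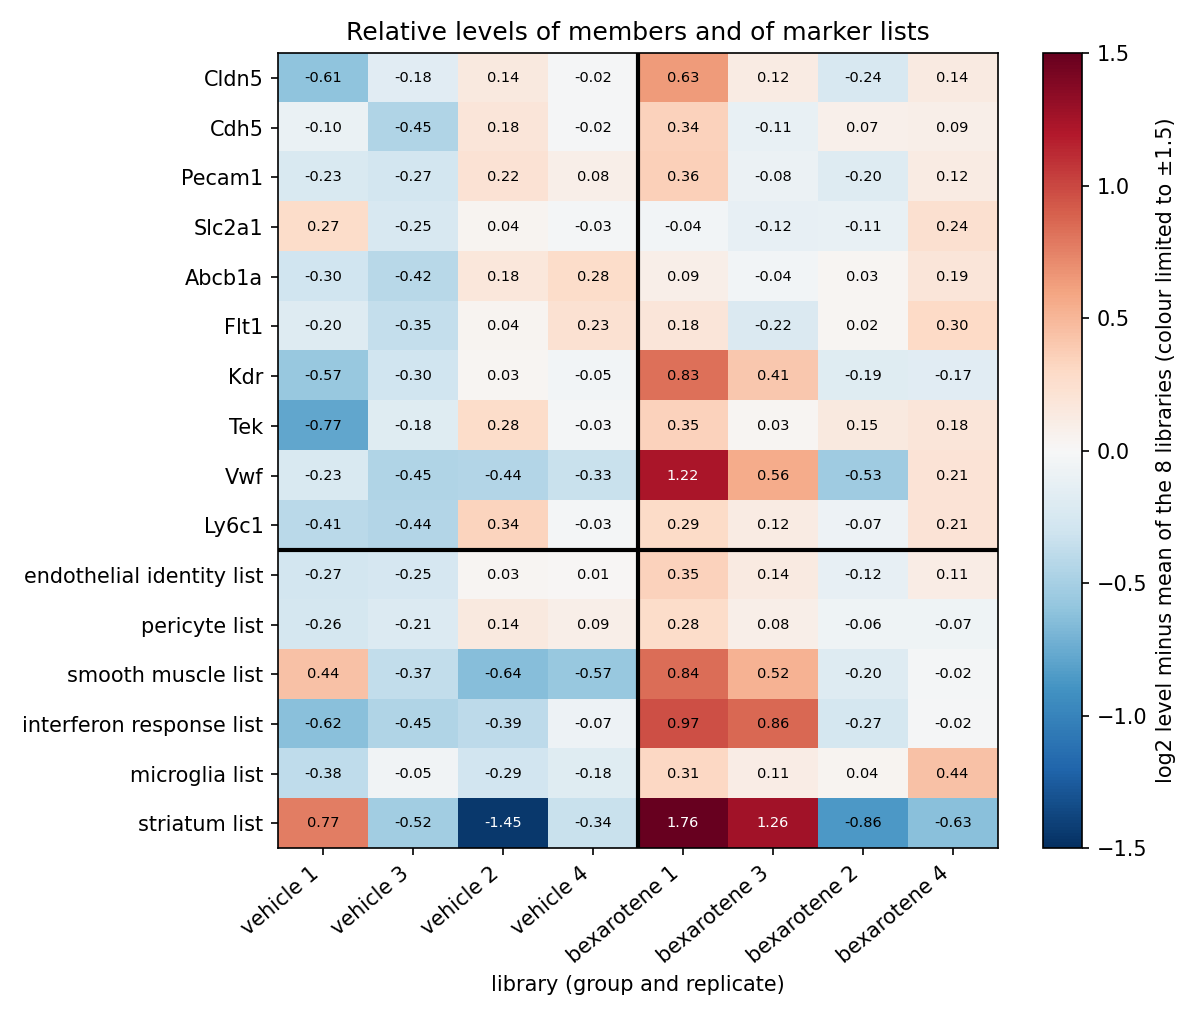
Log2 level of each member (upper block) and mean log2 level of 6 marker lists (lower block) in each library, minus the mean of the 8 libraries; columns are ordered by group and then with replicates 1 and 3 before 2 and 4. Most members are low in vehicle replicates 1 and 3, Vwf and Kdr are high in bexarotene replicates 1 and 3 together with the interferon, smooth muscle and striatum lists, and Slc2a1 follows none of these.

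The size of the difference depended on which libraries were set against each other. Within replicates 1 and 3 the difference of mean log2 CPM, bexarotene minus vehicle, was positive in 9 of the 10 members. It was 1.23 for Vwf, 1.05 for Kdr, 0.77 for Cldn5, 0.66 for Tek, 0.63 for Ly6c1, 0.39 for Cdh5, 0.38 for Pecam1 and for Abcb1a, and 0.26 for Flt1, with -0.09 for Slc2a1. Within replicates 2 and 4 the same differences lay between -0.19 (Pecam1) and 0.22 (Vwf), with 0.04 for Tek, -0.11 for Cldn5 and -0.17 for Kdr. These are differences of 2 against 2 libraries, and whether they differ from each other was not tested. The libraries set against each other were also unlike in Xist and Y-linked transcripts. Every bexarotene library held both kinds, whereas each vehicle library held mainly 1 of them. Within each cluster, treatment and this difference cannot be told apart.

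Both groups took part in this contrast. In the vehicle group, replicates 1 and 3 were lower than replicates 2 and 4 by mean log2 CPM in Tek (-0.59), Abcb1a (-0.58), Ly6c1 (-0.57), Cldn5 (-0.45), Kdr (-0.43), Flt1 (-0.41), Pecam1 (-0.40) and Cdh5 (-0.36), but not in Vwf (0.05) or Slc2a1 (0.01). These are also the vehicle libraries with Xist and without Y-linked transcripts, so sex and the other features of this cluster cannot be told apart here. In the bexarotene group the same contrast was 1.05 for Vwf, 0.80 for Kdr and 0.43 for Cldn5, and between -0.18 and 0.18 for the other 7 members.

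**Figure D4:**
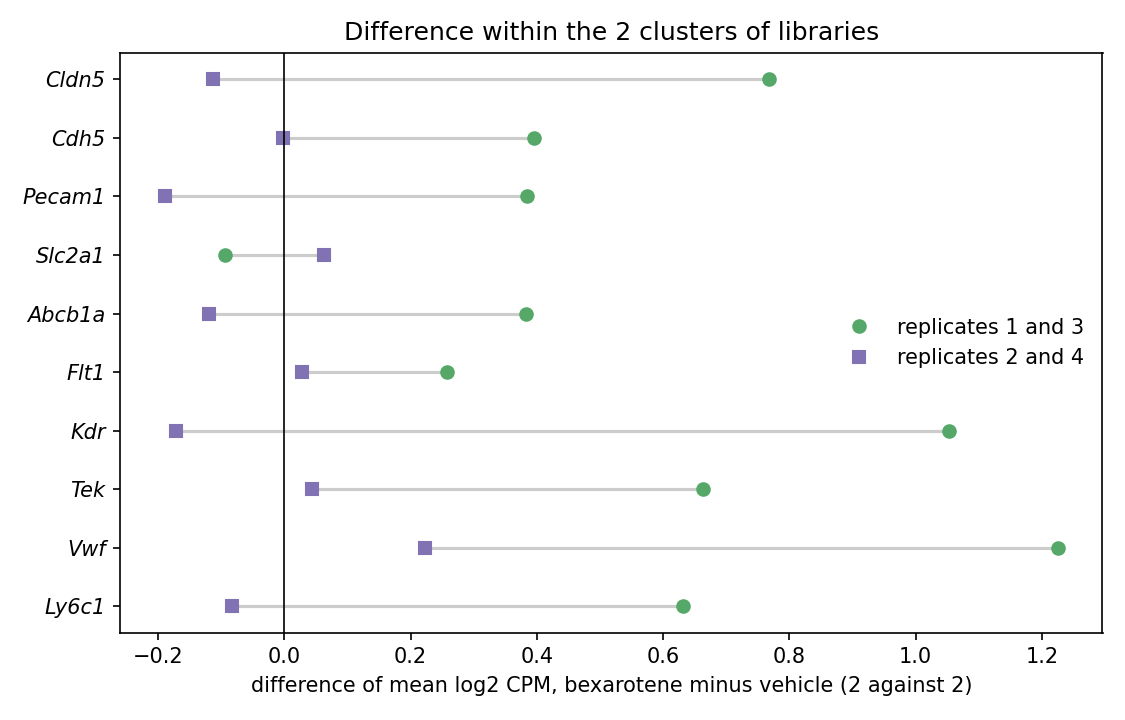
Difference of mean log2 CPM, bexarotene minus vehicle, within replicates 1 and 3 (green circles) and within replicates 2 and 4 (purple squares), 2 libraries against 2 in each case. Of the 10 genes, 9 lie to the right of 0 within replicates 1 and 3, and the values within replicates 2 and 4 lie between -0.19 and 0.22.

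Further genes of the endothelium and the barrier, in 6 lists, gave a similar picture. Of 116 genes, 113 passed the filter, and 0 passed over all genes in the quasi-likelihood test. The log2 fold change was positive in 86 of the 113, beside 50.2% of all genes. At an unadjusted p below 0.05, 14 of the 113 were higher and 2 lower, beside 4.88% and 3.89% of all genes. These lists were measured in the same 8 libraries as the members, so they are not separate support. Endothelial identity genes, such as transcription factors and surface markers, were positive in 25 of 30 with a median of 0.15. Pglyrp1, a peptidoglycan-binding protein, had 0.60 ± 0.21 (SE, log2) and Ctla2a, a protease inhibitor homologue, 0.55 ± 0.18. The level of this list over the libraries resembled that of the members: 0.35 in bexarotene replicate 1, and -0.27 and -0.25 in vehicle replicates 1 and 3. Set against this list within each library, Vwf still differed between groups by 0.49 (log2), Kdr by 0.20 and Slc2a1 by -0.25, while the other 7 members lay between -0.14 and 0.12.

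Of 13 junction genes, 8 were positive (median 0.17), with F11r, the junctional adhesion molecule A, at 0.42 ± 0.15 and Lsr, a protein of junctions between 3 cells, at 0.31 ± 0.13 (SE, log2). Each Lsr value under bexarotene, 7.81 to 9.97 CPM, exceeded each vehicle value, 6.37 to 7.56 CPM. Over the 6 lists, 4 of the 113 tested genes lay higher without overlap between the groups and 0 lower. The shares over all genes were 3.61% and 2.16%. Of 18 transport genes, 12 were positive (median 0.08). Bsg, the chaperone of monocarboxylate transporters, was at 293 to 395 CPM under bexarotene and 266 to 284 CPM under vehicle, a difference of 0.30 ± 0.10 (log2, SE; quasi-likelihood adjusted p = 0.475). Slc16a1, a lactate carrier that Bsg serves, had 0.36 ± 0.14. In the other direction, Abcc4, an efflux pump, had -0.39 ± 0.17, with an unadjusted p of 0.0402 in the quasi-likelihood test. Bsg is also expressed outside the endothelium.

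Ligands and receptors of the VEGF, angiopoietin and related pathways were positive in 14 of 20 (median 0.21). Eng, the co-receptor endoglin, was at 44.6, 23.9, 34.3 and 27.2 CPM in bexarotene replicates 1 to 4 and at 18.01, 27.2, 20.4 and 25.2 CPM in vehicle replicates 1 to 4, a log2 fold change of 0.52 ± 0.20 (SE), and Acvrl1, its partner receptor, had 0.38 ± 0.16. Eng was high and low in the same libraries as Kdr (r = 0.98 over 8 libraries). Barrier Wnt genes were positive in 12 of 16 (median 0.07), with the transcription factor gene Foxf2 at 0.45 ± 0.19 and the co-receptor gene Lrp6 at -0.22 ± 0.10. Genes of endothelial activation were positive in 15 of 16 (median 0.23). Adamts1, a secreted protease, was at 6.89 to 8.90 CPM under bexarotene and 5.13 to 6.11 CPM under vehicle, a difference of 0.49 ± 0.13 (log2, SE; quasi-likelihood adjusted p = 0.393). The leukocyte adhesion gene Vcam1 had 0.28 ± 0.11, and Sele and Selp, the endothelial selectins, were too low to be tested.

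The mural cells that wrap the vessels were compared as neighbours of the endothelium. Pericyte markers were positive in 8 of 11 with a median of 0.06, and summed to 147 to 208 CPM under bexarotene and 130 to 158 CPM under vehicle. The pericyte list had -0.26 and -0.21 (log2) in vehicle replicates 1 and 3 and 0.14 and 0.09 in vehicle replicates 2 and 4. Vehicle replicates 1 and 3 were thus the low libraries for this list as for most endothelial members. Kcnj8, a potassium channel of pericytes, differed by 0.51 ± 0.22 (log2, SE), and Notch3, a receptor of mural cells, 0.30 ± 0.14. Smooth muscle markers had a median of 0.50, with Myl9 at 0.53 ± 0.20 and Acta2, smooth muscle actin, at 0.62 ± 0.31. None of these genes passed over all genes. A positive median was not limited to vessel lists. It was 1.62 for choroid plexus, 0.98 for interferon response, 0.88 for striatum, 0.64 for blood, 0.41 for microglia, 0.14 for oligodendrocyte and 0.07 for astrocyte markers. It was negative for neuron markers (-0.09, with 6 of 9 genes lower) and for monocyte and neutrophil markers (-0.31).

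**Figure D5:**
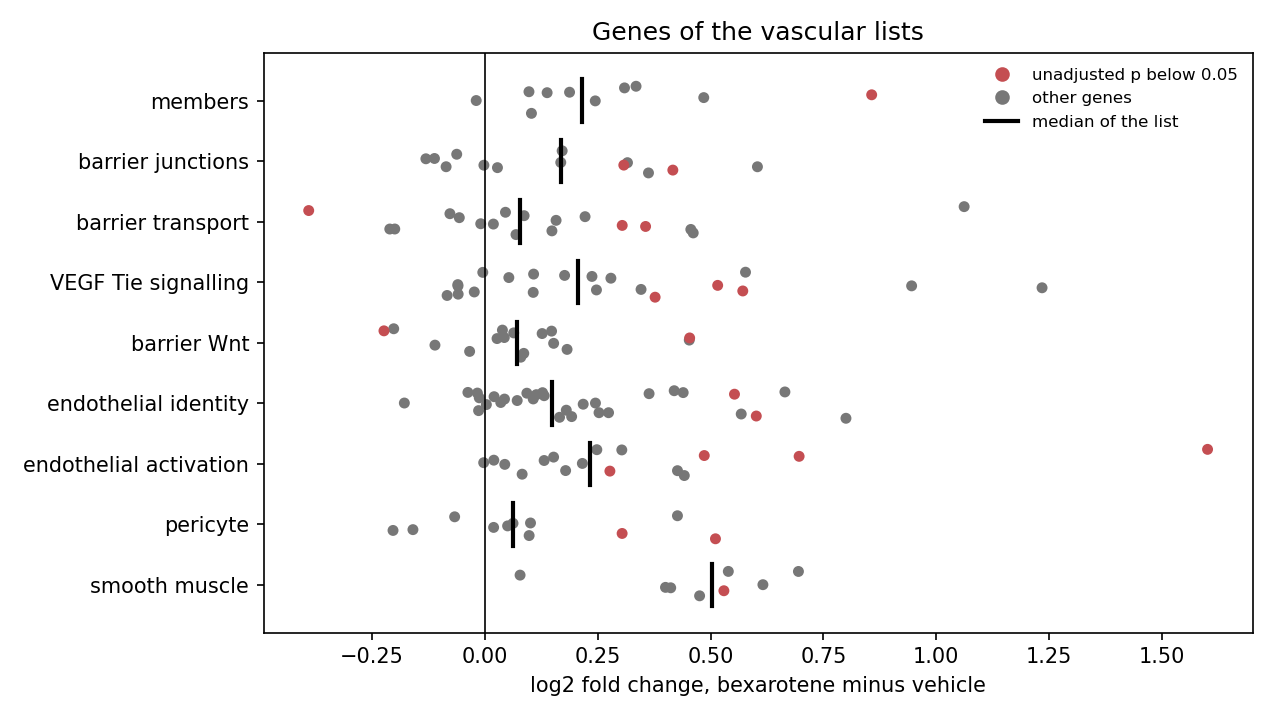
Log2 fold change (horizontal axis, bexarotene minus vehicle) of every tested gene among the 10 members and in 8 vascular lists, with genes at an unadjusted p below 0.05 in red and the median of each list as a black line. All 9 medians lie to the right of 0, from 0.06 for pericyte markers to 0.50 for smooth muscle markers, and no gene shown passed after adjustment over all genes.

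The genes whose log2 CPM over the 8 libraries was most like the members' mean standardised level were, among 13965 genes with a mean of at least 1 CPM, Dand5 (r = 0.98), Zfp511, Med9, Slc24a6, Cyhr1, Ctnna1, Slc9a3r2, Xaf1, Llgl1 and Fkbp9 (r = 0.94). Most like Vwf were Lpcat3 (r = 0.98), Fcgrt and Lmo2, and most like Slc2a1 were D19Wsu162e (r = 0.97), Plekhm1 and Klf2 (r = 0.93), the last a transcription factor of endothelium. Most like Kdr, beside Eng, were Eef1g (r = 0.98) and 2310016M24Rik. With 8 libraries and this many candidates, such values are a description only.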

How the data were processed

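RNA from cortex was sequenced in 8 libraries, made with a stranded TruSeq mRNA kit per the labels' protocols. The authors deposited raw read counts per RefSeq transcript, 28644 rows for 22869 symbols. The submitters' processing notes name build mm9 and edgeR. Aligner, counting program and strand setting: not given in the sources used here. Titles supplied the group and the replicate number. No deposited value column went unused (0 left out).

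All rows were fitted together with edgeR 4.0.16 (R 4.3.3): TMM factors, the default low-count filter (21285 rows kept, 16069 genes), robust quasi-likelihood F test with group as the only term, and Benjamini-Hochberg adjustment over all rows kept. A call is an adjusted p below 0.05. CPM values are relative to the kept total times the TMM factor; log2 CPM used a prior count of 2. Standard errors were derived from the F statistic. Exact two-sided permutation tests used the 8 log2 CPM values. The code was tested on simulated data with known changes. Alternatives were run with DESeq2 1.42.0 and limma 3.58.1 and with other scalings, covariates and left-out libraries. Transcript lengths came from GENCODE M21, matched for 99.1% of rows. Totals over rows are sums of table entries, not numbers of reads, since isoform rows can share reads.

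Replicates are numbered 1 to 4 in both groups. After subtracting group means, libraries with equal numbers correlated over genes by 0.43, 0.28, 0.14 and 0.16, each above 0.1, the bar set for taking the numbers as pairs; the pairing rests on the titles' numbers and these values only. Unequal numbers correlated as much in places: bexarotene 3 with vehicle 1 (0.44), bexarotene 4 with vehicle 2 (0.23) and bexarotene 2 with vehicle 4 (0.20). The values reported have no block; a fit blocked on replicate was run as an alternative.

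The 10 members and all gene lists were chosen with earlier results of these data known. All members are named; of each other list, the 2 genes with the smallest p and a mean of at least 1 CPM were named, with paralogs, isoform rows and the most similar genes. Ly6a, Abcc4, Sele and Selp were named after their values were seen. Not every marker list is described.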

Additional observations from a re-analysis of the deposited data

Results flagged for a closer look

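Ly6c2, the paralog of Ly6c1, was at 1.48 CPM in vehicle replicate 2 and at 0.0335 to 0.141 CPM in the other 3 vehicle libraries, a gap of 0.926 of the whole range of that group. In the bexarotene group it was at 1.76 and 1.14 CPM in replicates 1 and 3 and at 0.0403 and 0.0667 CPM in replicates 2 and 4. In all, 64 groups of 4 libraries were examined for such gaps (the members, the 2 paralogs and the levels of the gene lists). This was the 1 that stood out. About 1 in 20 such groups would stand out by chance, so 1 flagged among 64 is not more than the rule alone would give. The groups share the same 8 libraries, and the rule did not flag the 2 high libraries of the bexarotene group. This count therefore does not bear on what underlies the Ly6c2 values, which was not tested.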

How the results depend on the processing

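Over 25 alternatives (23 planned and 2, the smooth muscle and striatum covariates, chosen after seeing the data), 0 of the 10 members passed in each, and the lowest adjusted p of any member was 0.143, for Vwf in DESeq2. The median log2 fold change of the members, 0.22, was 0.075 with the interferon covariate, 0.12 to 0.36 when 1 library was left out (lowest without vehicle replicate 3, highest without vehicle replicate 2), and 0.16 to 0.25 under the others. The number of genes called was 97 in DESeq2, 37 in edgeR's exact test, 3 with the library cluster as a covariate, 0 in edgeR with the interferon covariate, and 1 to 2 when 1 library was left out, against 1. With the replicate block it was 1, the median of the members was 0.23 and Vwf had 0.73; the block changed no call among the members. With the interferon covariate the log2 fold changes of Cldn5, Kdr, Pecam1 and Slc2a1 took the opposite sign, at -0.024, -0.065, -0.087 and 0.063. Slc2a1 was also positive with the Y-linked covariate (0.0015), without composition factors (0.0047) and with upper quartile factors (0.014). Leaving out 1 library gave -0.10 to 0.075 for Slc2a1, -0.014 to 0.20 for Pecam1 and -0.0034 to 0.23 for Abcb1a. The causes were not tested. The Poisson error at the lowest count of a member was at most 7.07%, below most of the coefficients of variation between libraries, and whether more depth or more libraries would change a call was not tested.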
